A study of Mus musculus with 16 samples.

Results

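Secreted or membrane-bound signals that T cells can send to their neighbours were followed in regulatory T cells (Tregs) of mice with a myocardial infarction (MI): Csf2, Csf1, Lif, Vegfa, Penk, Tnf, Ifng, Tnfsf8 and Tnfsf11. They were taken by gene name, as growth factors and inflammatory cytokines, and are 9 of the 19195 genes with values. Tregs are T cells that express the transcription factor Foxp3 and restrain immune responses. All cells came from 8-week-old Foxp3-GFP mice, in which Foxp3-expressing cells carry a green fluorescent reporter, 7 days after MI. Their source was either the injured heart or a lymph node of the chest, the mediastinal one (MLN), and each was sorted for presence (CCR8+) or absence (CCR8-) of the chemokine receptor CCR8. Each of the 4 resulting groups had 4 libraries, with about 100 cells per library after magnetic and flow sorting. No group came from uninjured mice, and nothing in the labels tells whether replicate libraries stem from different mice, so p-values measure the spread between libraries only.

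Csf2 encodes GM-CSF and Csf1 encodes M-CSF, colony-stimulating factors that act on macrophages, monocytes and other myeloid cells. Lif is a cytokine of the interleukin 6 family, and Vegfa is the main growth factor of blood vessels and a target of the hypoxia response. Penk encodes proenkephalin, which is cut into the opioid peptides called enkephalins. Tnf and Ifng (interferon gamma) are the inflammatory cytokines of effector T cells that activate macrophages, and Tnfsf8 (CD30 ligand) and Tnfsf11 (RANKL) are membrane ligands of the TNF family that activated T cells display. In the heart after an infarct, macrophages and vessels are rebuilding the damaged muscle, and T cell products of these kinds are among the signals that reach them.

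The mRNAs of many such signals are short-lived, and AU-rich repeats of ATTTA in the 3′ untranslated region (UTR) are the known mark of that short life. The following windows of 30 bases show the densest run of ATTTA in 5 members (5′ to 3′, T for U, ATTTA in capitals), and are given because Csf2 and Tnf, unlike the other members, also held the longer element ATTTATTTA.
Csf2: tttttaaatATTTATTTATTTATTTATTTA
Tnf: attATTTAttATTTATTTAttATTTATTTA
Ifng: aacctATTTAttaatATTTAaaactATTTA
Lif: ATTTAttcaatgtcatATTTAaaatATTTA
Tnfsf8: tATTTAtctttttctctttttcttcATTTA
The window of Csf2 lies at bases 230 to 259 of a 3′ UTR of 317 bases that held 9 overlapping or separate ATTTA, 28.4 per kilobase. The UTR of Tnf held 8 in 764 bases and that of Ifng 6 in 631 bases. Longer UTRs gave 7 in 3180 bases for Lif, 10 in 2799 for Tnfsf8, 6 in 1131 for Tnfsf11 and 4 in 2111 for Csf1, while Penk had 0 in 308 bases. The median over 20739 mouse genes with a 3′ UTR (GENCODE vM21) was 1 ATTTA per gene and 1.17 per kilobase, and 5.68% of genes held ATTTATTTA. The transcript used for Vegfa has a 3′ UTR of only 27 bases, so nothing is read from its lack of the repeat.

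The 250 bases before the gene start are printed for Csf2 and Tnfsf8, the members whose levels passed a test (RefSeq, GRCm38.p6, minus strand, 5′ to 3′, a searched motif in capitals).
Csf2, chr11:54249900-54250149: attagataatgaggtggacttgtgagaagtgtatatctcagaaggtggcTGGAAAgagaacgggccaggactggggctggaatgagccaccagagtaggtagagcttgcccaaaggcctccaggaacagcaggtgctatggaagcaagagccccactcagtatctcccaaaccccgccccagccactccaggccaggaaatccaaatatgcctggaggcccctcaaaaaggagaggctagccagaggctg
Tnfsf8, chr4:63861285-63861534: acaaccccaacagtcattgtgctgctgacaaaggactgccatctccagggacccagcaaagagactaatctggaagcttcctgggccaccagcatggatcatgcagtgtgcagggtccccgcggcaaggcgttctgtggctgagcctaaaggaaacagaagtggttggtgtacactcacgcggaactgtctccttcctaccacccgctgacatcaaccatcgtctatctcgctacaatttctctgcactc
RefSeq places the start of Csf2 upstream of the GENCODE start, so its window lies farther out than the others. For Tnfsf8 the RefSeq start lies inside the GENCODE gene, so bases 63861285 to 63861347 of its window belong to that gene. The window of Lif overlaps its GENCODE gene as well. The motifs searched on both strands were AP-1 (TGANTCA), CRE (TGACGTCA) and its core (TGACG, contained in the full CRE), NF-kB (GGGNNTTCC), NFAT (TGGAAA), the TATA box (TATAAA) and the core of the hypoxia element (ACGTG). Csf2 held 1 NFAT match, 201 to 196 bases before the start, and Tnfsf8 held none of the motifs. Tnf held NFAT and TATA matches, Ifng a TATA box and a CRE core, Tnfsf11 a TATA box and Lif an AP-1 match. Of the 2 Vegfa starts 1 held NFAT. The other held a CRE core that overlaps ACGTG, but its window (46025164 to 46025413) lies inside the Vegfa gene as GENCODE places it. Of 32851 mouse promoters 18.6% held the NFAT letters, 12.4% TATAAA, 17.8% the CRE core, 16.6% ACGTG, 6.75% AP-1, 4.98% NF-kB and 1.55% the full CRE. Csf1 had no match. A match describes the letters only.

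The members lie on chromosomes 3 (Csf1, 107741048 to 107760469), 4 (Penk, 4133531 to 4138819, and Tnfsf8, 63831308 to 63861347), 10 (Ifng, 118441046 to 118445892) and 11 (Lif, 4257557 to 4272514, and Csf2, 54247271 to 54249667). The others lie on chromosomes 14 (Tnfsf11, 78277445 to 78308043) and 17 (Tnf, 35199381 to 35202007, and Vegfa, 46016993 to 46032369; GRCm38, GENCODE vM21 for all). Csf2 overlaps the antisense gene Gm12223 over 2068 bases, Penk the opposite-strand A830012C17Rik over 499 bases and Ifng the same-strand Gm49751 over 2722 bases. None of these 3 genes has a row in the table. No source states whether the authors' counting used strand, so reads from an overlapping gene cannot be told apart from those of the member.

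Values are log2(FPKM + 1), where FPKM is a read number scaled for gene length and library, and a value of 0 is given as listed at 0 since no read numbers are known. Ccr8 mRNA had a mean of 10.01 ± 0.30 in CCR8+ and 8.45 ± 0.24 in CCR8- cells of the heart, and of 7.78 ± 0.40 and 4.60 ± 0.66 in those of the MLN (SD, n = 4), while general T cell markers averaged between 7.69 and 8.85 in every library. Foxp3 mRNA averaged 4.90 ± 0.59 in CCR8+ and 5.36 ± 0.42 in CCR8- cells of the heart (SD, n = 4). In the MLN it averaged 5.58 ± 0.795 and 5.10 ± 0.41, and it was not called in any comparison. Some heart libraries stood apart in transcripts of other cells. The mean of 12 macrophage and monocyte markers was 2.24 to 3.55 in heart CCR8-, but 0.33, 5.35, 2.26 and 3.39 in heart CCR8+ replicates 1 to 4, and in the MLN it was 0.25 to 0.56 without and 0.75 to 1.29 with CCR8. The mean of 10 endothelial markers was 5.48 in heart CCR8- replicate 3 and at most 1.57 in every other library. B cell markers averaged 3.98, 4.08, 2.72 and 1.86 in MLN CCR8+ replicates 1 to 4, and 1.20, 2.79, 1.04 and 0.39 in MLN CCR8-. Macrophages, B cells and endothelial cells can make several of the members, so these values are set beside the results they move with. In libraries of this kind, fewer cells that make an mRNA and less mRNA per cell cannot be told apart.

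Of the 9 members, 8 reached an FPKM of 1 in 4 or more of the 16 libraries and were tested with all 10369 such genes in limma, and Vegfa did not (1 library). A gene was called at a Benjamini-Hochberg adjusted p under 0.05. Between the heart groups 1 of the 8, Csf2, was called higher in CCR8+ cells, where 0.27% of all tested genes were, and none lower (0.0964% of all). Between the MLN groups none was called (2.04% of all genes called higher and 2.09% lower in CCR8+, or 212 and 217 genes, and 275 and 174 with median-of-ratios factors). There 2 of the 8 members, Tnf and Csf1, had an unadjusted p under 0.05 in limma, as did 17.7% of all tested genes. Among CCR8+ cells 2 members, Csf2 and Tnfsf8, were called higher in heart than in MLN, beside 5.82% of all genes, and none lower (3.97% of all). Among CCR8- cells 1 member, Tnfsf8, was called higher in heart, beside 2.95% of all genes, and none lower (1.61% of all). The CCR8 difference itself differed between heart and MLN (the interaction of tissue and CCR8) for 1 member, Csf2, beside 0.289% of all genes with a larger difference in heart and 0.116% with a smaller one. Csf2 passed the filter mainly through the group where it is high, so the members that passed could not fail to include it, and these counts are given as a description.

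**Figure D1:**
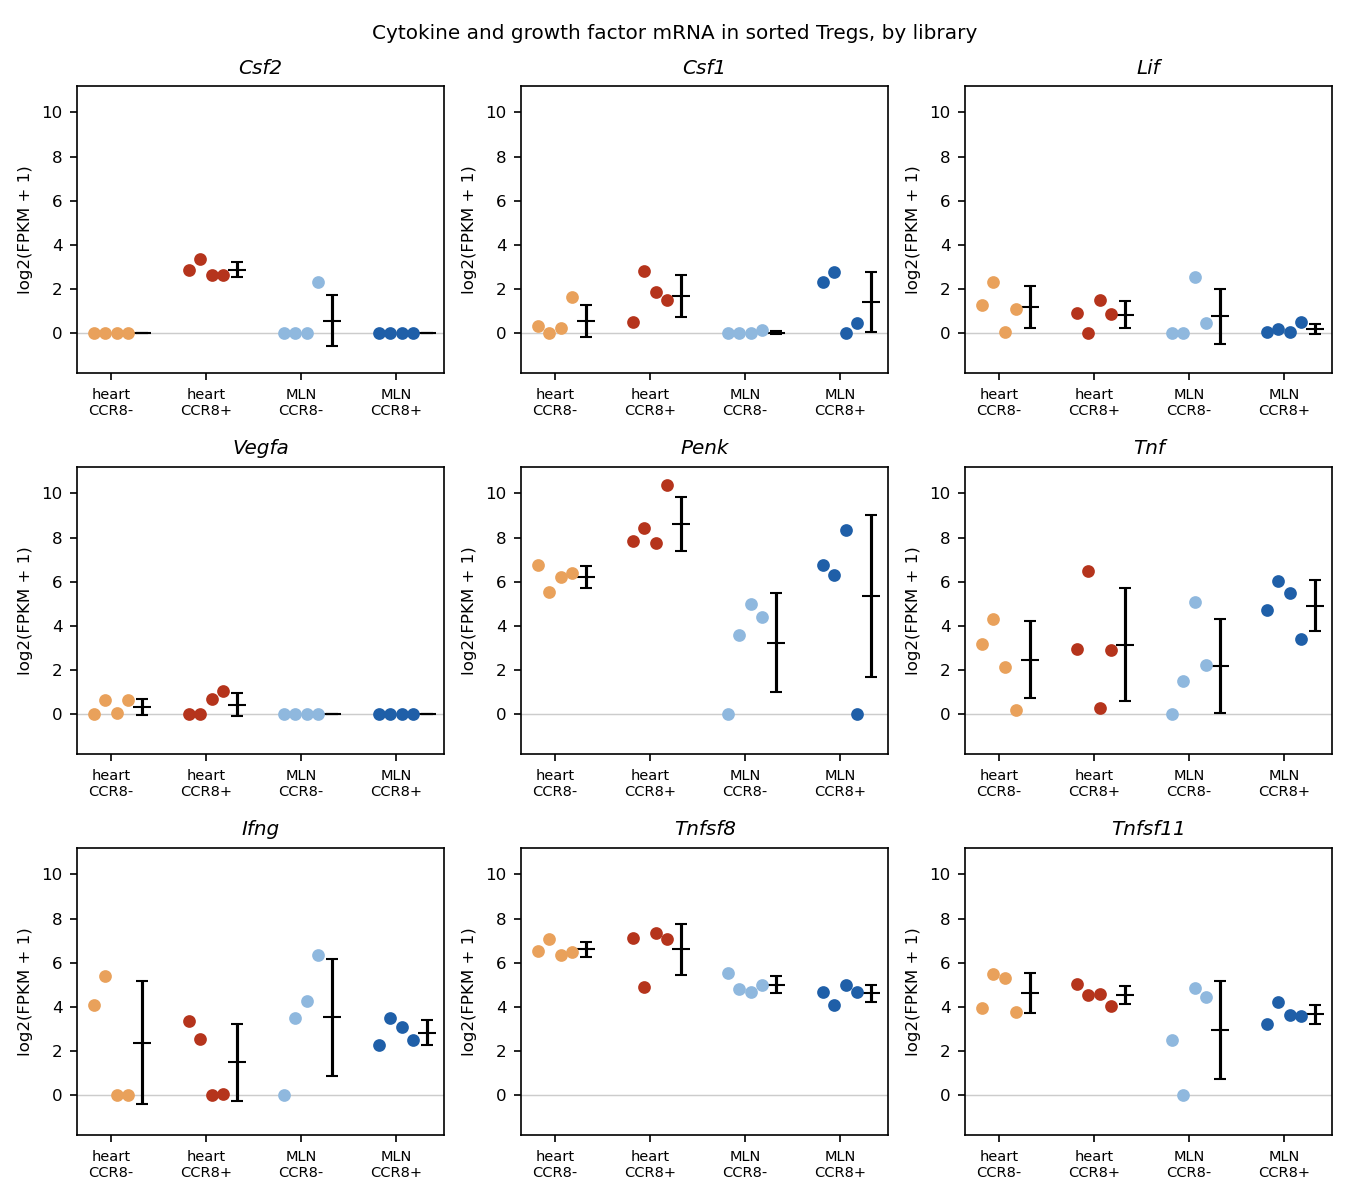
Level of each of the 9 genes in log2(FPKM + 1) (vertical axis) in the 4 groups, with 1 point per library and a bar for the mean and SD of the 4 libraries. Csf2 lies between 2.65 and 3.35 in the 4 heart CCR8+ libraries and above 0 in only 1 other library, Tnfsf8 lies higher in heart than in MLN, and Penk, Tnf and Ifng spread widely within several groups.

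Csf2 mRNA was found in every heart CCR8+ library and, among the other 12 libraries, in 1. Its level was 2.87, 3.35, 2.65 and 2.65 in heart CCR8+ replicates 1 to 4, and it was listed at 0 in all 4 heart CCR8- and all 4 MLN CCR8+ libraries. In MLN CCR8- it was 2.31 in replicate 4 and listed at 0 in the other 3. The heart CCR8+ libraries thus lay above every other library of the study, with the single MLN CCR8- library closest.

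Groups without overlap as in Csf2, with heart CCR8+ above, were seen in 3.45% of tested genes against heart CCR8- and in 9.71% against MLN CCR8+. Against heart CCR8-, the difference in Csf2 was 2.88 ± 0.50 (SE, adjusted p = 0.0209 in limma), and against MLN CCR8+ it was also 2.88 (adjusted p = 0.000965). These comparisons share the heart CCR8+ libraries. No fold is given, since the other group is listed at 0 in both. The CCR8 difference was 3.46 ± 0.71 larger in heart than in MLN (adjusted p = 0.0321), and it was -0.58 within MLN (adjusted p = 0.616). The difference to MLN CCR8+ was called in all 25 other settings and left-out libraries tried (adjusted p from 8.38e-05 to 0.0165).

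The difference between the heart groups was called in 18 of these 25 (adjusted p from 0.0017 to 0.0935), and the interaction in 8 of 24. Between the heart groups the adjusted p was 0.0539 without heart CCR8- replicate 2, and 0.0605, 0.0566 and 0.0516 without heart CCR8+ replicates 1, 2 and 3, with differences of 2.72 to 2.96. The interaction lost its call without any 1 of the 4 heart CCR8- libraries, of heart CCR8+ replicates 1, 2 and 3, or of MLN CCR8+ replicates 1, 2 and 4 (adjusted p from 0.0534 to 0.0796), and with a replicate block (adjusted p = 0.0614). Without heart CCR8- replicate 3 and heart CCR8+ replicate 2, the libraries richest in endothelial and macrophage markers, the heart difference was 2.72 (adjusted p = 0.0935). In heart CCR8+ replicate 1, where Csf2 was 2.87, fibroblast (0.57), macrophage (0.33) and endothelial (0.41) marker levels were the lowest of the 8 heart libraries, while dendritic cell (1.44), B cell (0.97) and cytotoxic T and NK cell (1.64) markers were not. Foxp3 was 4.32 in heart CCR8+ replicate 1, the lowest of the 16 libraries, and did not differ by call between the heart groups (adjusted p = 0.729 in limma). The part of other cells in Csf2, T cells without Foxp3 among them, was not tested.

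The other growth factors were low, and none of them passed a test. Csf1 was 0.52, 2.84, 1.85 and 1.51 in heart CCR8+ replicates 1 to 4 and 0.34, 0, 0.26 and 1.65 in heart CCR8-. It was 2.33, 2.78, 0 and 0.49 in MLN CCR8+ and listed at 0 in 3 MLN CCR8- libraries, with 0.13 in the other. In both tissues the CCR8+ mean was the higher one, but the groups overlapped, with differences of 1.12 ± 0.64 in heart (SE, adjusted p = 0.544) and 1.36 ± 0.64 in MLN (adjusted p = 0.267). In heart CCR8+ replicate 2, with a Csf1 of 2.84, macrophage markers were 5.35 and B cell markers 1.42. In MLN CCR8+ replicates 1 to 4 macrophage markers were 0.78, 0.82, 1.29 and 0.75, so that the highest stood beside a Csf1 of 0, and B cell markers were 3.98, 4.08, 2.72 and 1.86. The part of those cells in the values was not tested.

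Lif, whose receptor pairs Lifr with gp130, was 1.29, 2.32, 0.04 and 1.11 in heart CCR8-, and 0.94, 0.01, 1.51 and 0.88 in heart CCR8+. In MLN it was 0, 0, 2.57 and 0.47 in CCR8- and at most 0.53 in CCR8+ libraries. All 4 comparisons of groups overlapped (differences from -0.56 to 0.63, adjusted p from 0.564 to 0.882). Vegfa reached 0.65 and 0.64 in heart CCR8- replicates 2 and 4, and 0.69 and 1.06 in heart CCR8+ replicates 3 and 4. It was at 0.05 or listed at 0 in the other 4 heart libraries and listed at 0 in all 8 MLN libraries. Its detection, in 5 of 8 heart libraries, was too low for a test.

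**Figure D2:**
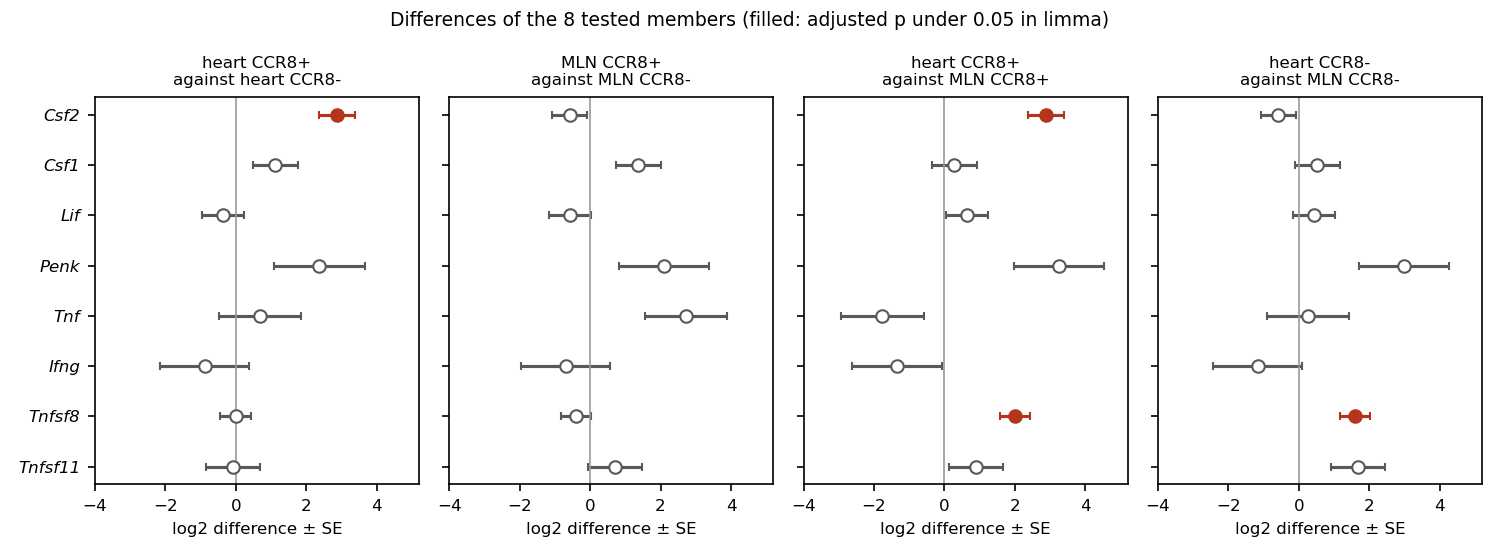
Difference in log2(FPKM + 1) (horizontal axis) for the 8 tested members in the 4 comparisons of groups, with bars of 1 SE from limma, where a filled point has an adjusted p under 0.05. Csf2 is called in both comparisons that involve heart CCR8+ cells, at 2.88, Tnfsf8 in both comparisons of heart with MLN, at 2.001 and 1.60, and Penk lies above 0 in each panel without a call.

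Penk, the enkephalin precursor known from Tregs of several tissues, was the member with the highest mean in heart CCR8+ and in MLN CCR8+ Tregs, with a wide spread between libraries in the MLN groups. It was 7.86, 8.44, 7.75 and 10.39 in heart CCR8+ replicates 1 to 4 and 6.74, 5.55, 6.24 and 6.40 in heart CCR8-. It was 6.76, 6.31, 8.33 and 0 in MLN CCR8+ and 0, 3.61, 4.98 and 4.39 in MLN CCR8-. All heart CCR8+ libraries lay above all heart CCR8- ones, as for 3.45% of all tested genes, and all heart CCR8- libraries lay above all MLN CCR8- ones, as for 5.24%. In each MLN group 1 library was listed at 0. Fibroblast markers averaged 0.57, 2.49, 2.46 and 3.40 in heart CCR8+ replicates 1 to 4 and 2.58 to 4.18 in heart CCR8-. They were at most 0.46 in MLN CCR8- and 0.37 in MLN CCR8+, and the part of other cells in Penk was not tested.

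None of the differences in Penk passed the test. Heart CCR8+ exceeded heart CCR8- by 2.38 ± 1.28 (SE, adjusted p = 0.525) and MLN CCR8+ by 3.26 ± 1.28 (adjusted p = 0.117). Heart CCR8- exceeded MLN CCR8- by 2.99 ± 1.28 (adjusted p = 0.212), and MLN CCR8+ exceeded MLN CCR8- by 2.10 ± 1.28 (adjusted p = 0.427). The spread of Penk within groups (SD 2.25 over the 4 groups) was larger than that of 99.9% of tested genes, and the libraries at 0 enter it. Without MLN CCR8+ replicate 4, which was at 0, the difference within MLN was 3.88 (adjusted p = 0.0252) and that between heart CCR8- and MLN CCR8- passed as well (2.99, adjusted p = 0.0452). Without MLN CCR8+ replicate 3, where Penk was 8.33, heart CCR8+ exceeded MLN CCR8+ by 4.26 (adjusted p = 0.0447). Each of these comparisons was called in only 1 of 25 other settings and left-out libraries. The highest adjusted p was 0.763 within MLN, 0.83 for heart CCR8- against MLN CCR8- and 0.416 for heart CCR8+ against MLN CCR8+. The call between heart CCR8- and MLN CCR8- came with an unchanged difference, since the library left out belongs to neither group.

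Tnf and Ifng had wide spreads within most groups, the exception being Ifng in MLN CCR8+ (SD 0.55, n = 4). Tnf was 4.74, 6.04, 5.51 and 3.39 in MLN CCR8+ replicates 1 to 4 against 0, 1.52, 5.06 and 2.22 in MLN CCR8-. In the heart it was 2.96, 6.49, 0.29 and 2.90 in CCR8+ and 3.19, 4.31, 2.16 and 0.20 in CCR8- libraries. MLN CCR8+ was the only group with every library above 3, and it overlapped with each other group. The difference within MLN was 2.72 ± 1.17 (SE, unadjusted p = 0.0308 and adjusted p = 0.22 in limma), and those of the other 3 comparisons had adjusted p from 0.382 to 0.937. The highest value, 6.49, came from heart CCR8+ replicate 2 with its macrophage markers of 5.35, and the MLN CCR8+ group was also the one with the highest B cell markers (1.86 to 4.08). Their part in Tnf was not tested. Without heart CCR8- replicate 3 and heart CCR8+ replicate 2, the difference between the heart groups went from 0.69 to -0.52.

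Ifng was 4.11 and 5.38 in heart CCR8- replicates 1 and 2 and listed at 0 in replicates 3 and 4. The heart CCR8+ libraries showed the same division by number, with 3.38 and 2.55 in replicates 1 and 2 and 0 and 0.05 in replicates 3 and 4. Replicates with the same number did not deviate together across all genes (Pearson's r from -0.0933 to 0.0589 over genes), and no batch is given for them. In MLN it was 0, 3.50, 4.29 and 6.36 in CCR8- and 2.29, 3.50, 3.09 and 2.50 in CCR8+ libraries. The difference was -0.88 ± 1.27 between the heart groups (SE, adjusted p = 0.858) and -0.70 ± 1.27 between the MLN groups (adjusted p = 0.842), and all groups overlapped. Cytotoxic T and NK cell markers, the cells best known for Ifng, averaged 1.23 to 2.36 over all 16 libraries, with 1.69 and 2.27 in heart CCR8- replicates 1 and 2 and 1.23 and 2.15 in replicates 3 and 4. Nkg7, the highest of these markers, was 6.76 to 8.745 in heart CCR8- and 6.60 to 9.66 in heart CCR8+, and weighs most in this mean.

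**Figure D3:**
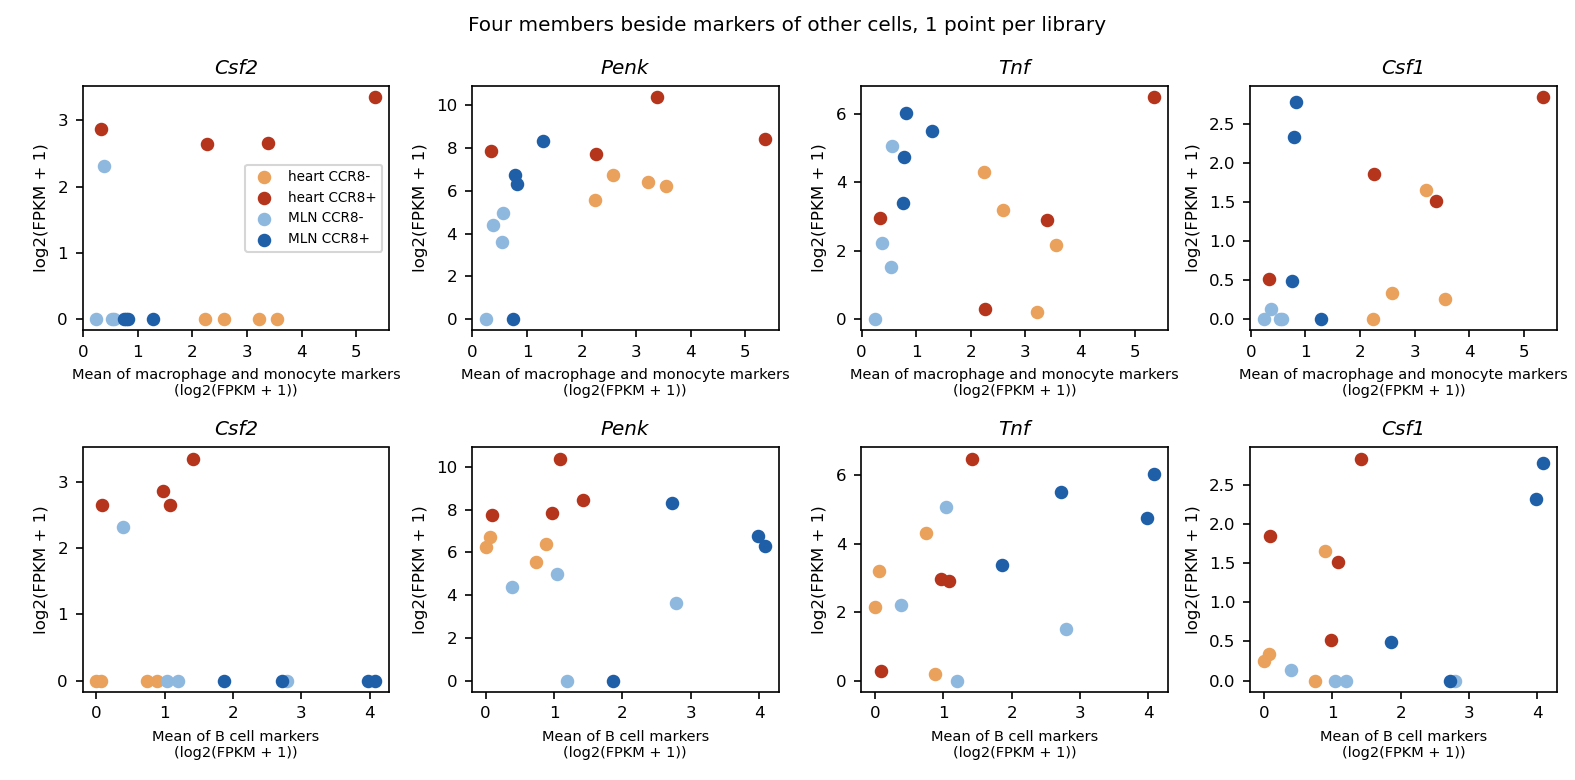
Level of Csf2, Penk, Tnf and Csf1 (vertical axes) against the mean of the macrophage and monocyte markers (upper row) or of the B cell markers (lower row), all in log2(FPKM + 1), with 1 point per library coloured by group. Csf2 is 2.87 in the heart CCR8+ library with the lowest macrophage markers and 0 in heart CCR8- libraries with markers of 2.24 to 3.55, while the highest Tnf and Csf1 values stand in the library with macrophage markers of 5.35.

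Tnfsf8, the ligand of CD30, was higher in heart than in MLN Tregs in both CCR8 sorts. Its level was 6.52, 7.10, 6.35 and 6.47 in heart CCR8- replicates 1 to 4 and 7.15, 4.89, 7.34 and 7.08 in heart CCR8+. It was 5.56, 4.83, 4.67 and 4.9985 in MLN CCR8- and 4.68, 4.07, 5.01 and 4.69 in MLN CCR8+. It was the only member with an FPKM of 1 or more in all 16 libraries. Heart CCR8+ replicate 2, the library with the most macrophage transcripts, stood below the rest of its group and was the only heart library within the MLN range.

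Heart CCR8+ averaged 6.61 ± 1.16 and MLN CCR8+ 4.61 ± 0.39 (SD, n = 4), a difference of 2.001 ± 0.43 (SE) or 4.004-fold on the FPKM + 1 scale (adjusted p = 0.00556 in limma). The difference was called in all 25 other settings and left-out libraries (adjusted p from 8.62e-05 to 0.0263) and was 2.58 without heart CCR8- replicate 3 and heart CCR8+ replicate 2 (adjusted p = 0.000123). Heart CCR8- averaged 6.61 ± 0.33 and MLN CCR8- 5.01 ± 0.39, a difference of 1.60 ± 0.43 or 3.03-fold (adjusted p = 0.0404) with no overlap between the groups, as for 5.24% of tested genes. The difference was called in 15 of 25 settings (adjusted p from 0.00418 to 0.146). It was not called without any 1 of heart CCR8- replicates 1 to 4 (0.0688, 0.11, 0.0604 and 0.0663) or of MLN CCR8- replicates 2 to 4 (0.0834, 0.106 and 0.086), with differences of 1.44 to 1.69. No CCR8 difference in Tnfsf8 was called in either tissue. The heart groups differed by 0.00 ± 0.43 (SE, adjusted p = 1) and the MLN groups by -0.40 ± 0.43 (adjusted p = 0.7).

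Tnfsf11, or RANKL, best known for driving osteoclasts and lymph node development, was 3.97, 5.50, 5.31 and 3.76 in heart CCR8- and 5.06, 4.53, 4.58 and 4.04 in heart CCR8+. It was 2.51, 0, 4.84 and 4.45 in MLN CCR8- and 3.21, 4.22, 3.64 and 3.60 in MLN CCR8+. Both heart groups had higher means than both MLN groups, but each pair overlapped. Heart CCR8- exceeded MLN CCR8- by 1.68 ± 0.77 (SE, adjusted p = 0.243) and heart CCR8+ exceeded MLN CCR8+ by 0.89 ± 0.77 (adjusted p = 0.526). The MLN CCR8- mean contains 1 library listed at 0.

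The order of the members by level, per gene length, changed between groups. In heart CCR8- it ran from Tnfsf8 and Penk, which did not differ beyond their spread, through Tnfsf11 to Tnf and Ifng, with Lif, Csf1 and Vegfa low and Csf2 at 0. In heart CCR8+ Penk stood first (8.61 ± 1.23, SD, n = 4), Tnfsf8 followed (6.61 ± 1.16) and Tnfsf11 next (4.55 ± 0.42), and Csf2 (2.88 ± 0.33) lay beside Tnf. The libraries of Penk and Tnfsf8 did not overlap there. In MLN CCR8- Tnfsf8 stood first, followed by Ifng, Penk, Tnfsf11 and Tnf, whose libraries overlapped. In MLN CCR8+ Penk, Tnf, Tnfsf8 and Tnfsf11 were the first 4 and Csf2 and Vegfa were at 0. Members with an FPKM of 1 or more numbered 4 to 6 in CCR8- and 6 or 7 in CCR8+ libraries of the heart, and 2 to 6 and 4 to 6 in those of the MLN.

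The receptors of these 9 ligands were in part present in the Tregs themselves. Of 18 listed receptor genes 17 had a row and 9 were tested. Ifngr1, the ligand-binding chain of the interferon gamma receptor, was the most abundant, from 9.63 to 10.67 in CCR8- and 9.48 to 10.29 in CCR8+ cells of the heart and from 6.77 to 9.97 and 6.92 to 7.98 in those of the MLN. It was 4.64-fold higher in heart CCR8+ than in MLN CCR8+ (2.21 ± 0.52 SE, adjusted p = 0.00992). Tnfrsf1b, the TNF receptor that Tregs are known to use, was 5.02-fold higher in heart CCR8- (5.85 to 6.46) than in MLN CCR8- (3.34 to 4.15; adjusted p = 0.00157). Tnfrsf8, which is CD30 and so the partner of Tnfsf8, was at 0.74 to 3.30 in MLN CCR8+ and listed at 0 in all 4 MLN CCR8- libraries (adjusted p = 0.0494). Elsewhere it was at most 0.37 in heart CCR8- and 2.54 in heart CCR8+, so it passed the filter mainly through MLN CCR8+, the group where it is high.

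These 3 were the only called receptors, in 1 comparison each, and none was called between the heart groups or for the interaction. Tnfrsf1a, the other TNF receptor, was 2.09 to 3.19 in heart CCR8+ and 3.99 to 5.04 in heart CCR8-, without overlap and without a call (-1.85 ± 0.48 SE, adjusted p = 0.127). Il6st, the gp130 chain that Lif uses, was between 2.21 and 4.58 in all libraries. Csf2ra, the alpha chain of the GM-CSF receptor, was tested and lay above 0 in every library, without a call. Its lowest value, 0.09, came from a heart CCR8- library and its highest, 2.73, from an MLN CCR8+ library. The beta chain of that receptor, Csf2rb, was too low to be tested, as were Lifr and the related gene Csf2rb2. The enkephalin receptor Oprd1 was listed at 0 in all 16 libraries. Flt1 and Kdr, the Vegfa receptors of endothelium, were low except for highest values of 5.35 and 4.33 in heart CCR8-, the group with the endothelial marker level of 5.48 in replicate 3.

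Among genes known to respond to these signals, 6 of the 16 in the TNF and NF-kB list, all tested, were higher and none lower in heart CCR8+ than in MLN CCR8+, beside 5.82% of all genes higher. The count was 4 without heart CCR8- replicate 3 and heart CCR8+ replicate 2. In the same comparison 7 of 10 tested fibroblast markers and 2 of 7 macrophage markers were higher, and their part was not tested. The median difference of the list was 1.12, against -0.08 over all tested genes. In heart CCR8- against MLN CCR8- 5 were higher and none lower, beside 2.95% of all genes higher, with a median of 1.28 against -0.10. There 8 of 10 fibroblast and 5 of 7 macrophage markers were higher as well. Between the CCR8 sorts 0 of the 16 were called, where calls were also few over all genes (0.27% higher and 0.0964% lower in heart, 2.04% and 2.09% in MLN), and the contrasts were not tested against each other. Tnfaip3, the deubiquitinase that limits NF-kB, was 3.60 ± 0.61 (SE) higher in heart CCR8+ than in MLN CCR8+ (adjusted p = 0.000709), and Rel, an NF-kB subunit of lymphocytes, 2.55 ± 0.38 higher (adjusted p = 0.000236). In the CCR8- comparison Rel was 3.12 ± 0.38 higher (adjusted p = 9.18e-05) and Nfkbiz, a nuclear modulator of NF-kB, 2.48 ± 0.40 higher (adjusted p = 0.00105). Tnf itself did not share this direction, being lower on average in heart CCR8+ than in MLN CCR8+ without a call (-1.76, adjusted p = 0.382).

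In the interferon gamma list 18 of 20 genes were tested. In heart CCR8+ against MLN CCR8+ 1 gene was higher, a share near that of all genes (5.82%). In the same comparison 4 were lower, beside 3.97% of all genes, with a median of -0.45 against -0.08 over all tested genes. Tap1, the peptide transporter of antigen presentation, was 2.18 ± 0.47 lower (SE, adjusted p = 0.00522), Iigp1, a GTPase against intracellular pathogens, 1.87 ± 0.51 lower (adjusted p = 0.0245), and Psmb9, an immunoproteasome subunit, 1.42 ± 0.25 lower (adjusted p = 0.000944). The chemokine Cxcl10 was 5.70 ± 1.41 higher (adjusted p = 0.0131). Psmb8, another immunoproteasome subunit, was higher in CCR8+ than in CCR8- cells of both tissues (0.78 and 0.69, adjusted p = 0.0315 and 0.0147) and lower in heart than in MLN of both sorts (-0.90 and -0.99). Without heart CCR8- replicate 3 and heart CCR8+ replicate 2 no gene of the list was called between the heart groups. In MLN CCR8+ against MLN CCR8- 2 genes of the list were higher, beside 2.04% of all genes (212 genes). With median-of-ratios factors 4 of the list were higher, beside 275 genes over all. In the main fit the 2 were Psmb8 and Irf8 (3.01, adjusted p = 0.00839), a factor that B cells and dendritic cells express. B cell markers were 1.86 to 4.08 and dendritic cell markers 0.76 to 1.44 in MLN CCR8+, and 0.39 to 2.79 and 0.24 to 1.10 in MLN CCR8-. In heart CCR8+ they were 0.09 to 1.42 and 0.97 to 1.63. The part of B cells and dendritic cells in the differences of this list, within MLN or between heart and MLN, was not tested.

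A further list held targets of LIF and GM-CSF signalling together with parts of the pathway itself, its kinases and STAT proteins. Of its 12 tested genes, 5 were higher in heart CCR8- than in MLN CCR8- (median 1.57), beside 2.95% of all genes. They included the feedback inhibitors Cish (2.10 ± 0.43 SE, adjusted p = 0.00647) and Socs3 (2.07 ± 0.44, adjusted p = 0.0105) and the kinase Jak2 (1.94 ± 0.35, adjusted p = 0.0028). That count was 3 without heart CCR8- replicate 3 and heart CCR8+ replicate 2, and 8 of 10 fibroblast and 5 of 7 macrophage markers were higher in the same comparison, whose part was not tested. In heart CCR8+ against MLN CCR8+ Jak2 (3.29 ± 0.35, adjusted p = 6.73e-06) and the kinase Pim1 (1.90 ± 0.37, adjusted p = 0.00241) were higher. In MLN CCR8+ against MLN CCR8- Socs2 (3.02, adjusted p = 0.0214) and Cish (2.64, adjusted p = 0.0015) were higher and Jak2 was 1.86 lower (adjusted p = 0.00502). Between the heart groups, where Csf2 differed, none was called and the median was -0.66. These genes answer to other cytokines too, interleukin 2 among them.

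The hypoxia list held known targets and the factor Hif1a itself. Of its 16 tested genes, 4 were higher and none lower in heart CCR8+ than in MLN CCR8+ (median 0.55). Beside them 5.82% of all genes were higher, with 7 of 10 fibroblast and 2 of 7 macrophage markers. The part of those cells was not tested. The 4 were Mxi1, a partner of Max (3.44 ± 0.77 SE, adjusted p = 0.00705), Egln3, an oxygen sensor (3.27 ± 0.85, adjusted p = 0.0179), Ndrg1, a stress-response protein (2.63 ± 0.78, adjusted p = 0.0379), and Hif1a, the hypoxia factor (2.11 ± 0.25, adjusted p = 2.05e-05). Among CCR8- cells Hif1a was higher in heart as well (1.05, adjusted p = 0.0199), and within the MLN it was lower in CCR8+ cells (-1.46, adjusted p = 0.00225). Vegfa, a textbook member of this response, was at most 1.06 in any library.

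**Figure D4:**
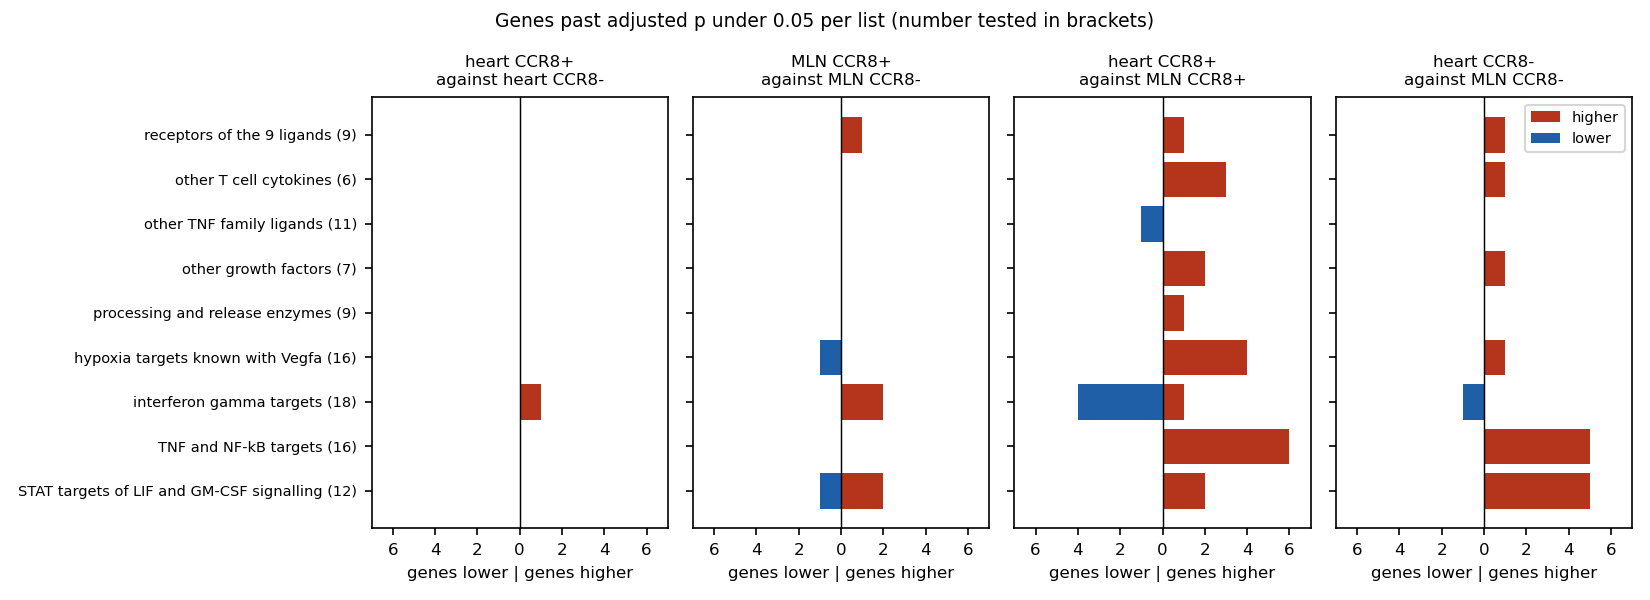
Number of genes called higher (to the right) or lower (to the left) at an adjusted p under 0.05 in limma (horizontal axis) for 9 lists of related genes (vertical axis, number tested in brackets) in the 4 comparisons of groups. The TNF and NF-kB targets have 6 and 5 genes called higher in the 2 comparisons of heart with MLN and 0 between the CCR8 sorts.

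None of 6 tested further cytokines, 11 further TNF family ligands, 7 further growth factors or 9 processing enzymes was called between the CCR8 sorts of either tissue, a share near that of all genes (0.27% higher and 0.0964% lower in heart, 2.04% and 2.09% in MLN). In heart CCR8+ against MLN CCR8+, where 5.82% of all genes were called higher and 3.97% lower, 3 of the 6 cytokines were higher. Il1b (0.63 to 9.20) and Il17a (0.08 to 6.07) were both listed at 0 in all MLN CCR8+ libraries (adjusted p = 0.0241 and 0.0317). Il6 was at 3.04 to 3.77 against 0 to 1.65 (adjusted p = 0.0395). Il6 was also higher in heart CCR8- than in MLN CCR8- (4.33 ± 0.88 SE, adjusted p = 0.00647), where 2.95% of all genes were called higher. The growth factors Spp1 (adjusted p = 0.00275) and Gdf15 (adjusted p = 0.0322), both listed at 0 in MLN CCR8+, were higher in heart CCR8+, and Spp1, or osteopontin, also in heart CCR8- (6.63 to 8.26 against 0 to 1.11, adjusted p = 0.000418). In heart CCR8+ Spp1 was 0.42 to 6.82 and Gdf15 0.34 to 6.08. Il1b, Il17a and Gdf15 stayed below an FPKM of 1 in every MLN library. They thus passed the filter only through the heart groups, where they are high, and their calls are a description. Il1b, Il6 and Spp1 are known products of macrophages and fibroblasts, whose marker levels were also higher in heart, and the part of those cells was not tested. Ltb, or lymphotoxin beta, was the 1 TNF family ligand called, 1.21 ± 0.32 lower in heart CCR8+ (9.30 to 9.45) than in MLN CCR8+ (10.29 to 10.76, adjusted p = 0.0198). B cell markers were 0.09 to 1.42 in heart CCR8+ and 1.86 to 4.08 in MLN CCR8+, and the part of B cells in Ltb was not tested. Without heart CCR8- replicate 3 and heart CCR8+ replicate 2, 2 of the cytokines, 1 growth factor, 1 processing enzyme and 0 TNF family ligands were called in this comparison. The protease Furin, which activates precursors, was 3.94-fold higher in heart CCR8+ (3.91 to 4.43) than in MLN CCR8+ (1.75 to 2.78; adjusted p = 0.0101).

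The genes with profiles most like those of the members were sought by the root mean square difference in log2(FPKM + 1) over the 16 libraries after each gene's mean was taken off, among the other 10368 tested genes. For Csf2 they were Ccdc184 (0.61, against 1.30 for Csf2 from its own mean) and Gm4858 (0.71). For Tnfsf8 they were Ankrd13c (0.54) and Ppp1r16b (0.55), against 1.08 for Tnfsf8 from its own mean. Penk had no close match, with 1.70 for Ly86 and 1.80 for Snx9 against 2.74 from its own mean. Tnf came closest to Sirt5 (1.22) and Hpgds (1.32), and Ifng to Rmnd1 (1.15) and Lin9 (1.16). Tnfsf11 came closest to Cmc2 (0.66) and Aimp2 (0.75), Lif to Kctd4 (0.43) and 4933434E20Rik (0.52), and Csf1 to Lenep (0.57) and Trmt12 (0.63). These are the smallest of many distances in 16 libraries and a description only.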

How the data were processed

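RNA of sorted Tregs was sequenced in 16 libraries, 4 in each of 4 groups. Per the labels' protocols libraries were made with the NEBNext Ultra RNA kit, and per the submitters' processing notes HISAT2 2.0.5, featureCounts 1.5.0-p3 and the build mm10 (GRCm38) were used. The deposited values, in columns that the authors named FPKM, hold log2(FPKM + 1) of libraries brought to a common distribution, as read from the values, since all libraries share a highest value of 14.899 and, unlogged, sum to between 1007908 and 1007934. Sums so alike are also what TPM would give. No source names the log or the quantile step, and the depth of the libraries is unknown, so no counting interval can be given. Normalization to 1 distribution removes any overall difference in mRNA amount between libraries.

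Of 19219 rows, 24 named as dates were left out, and 1966 of the other 19195 were at 0 everywhere. The 10369 genes that reached an FPKM of 1 in 4 or more libraries were fitted in 1 limma model (limma 3.58.1, R 4.3.3) with a mean per group, variance trend, and 12 residual and 7.01 prior degrees of freedom. Tests were two-sided with Benjamini-Hochberg adjustment over all tested genes, and p-values in the text are from this model. The procedure was tested on simulated data. The 9 members and all gene lists were chosen with earlier results of these data known. All members are named, of each list up to 3 called genes per direction and comparison and, as examples chosen after their values were seen, a few others, and 2 genes most like each member by profile. Alternatives were median-of-ratios factors, array weights, a replicate block, a filter at an FPKM of 5, none at all and a pseudocount of 0.1. Others were a fit of just the compared groups and a covariate for other cell types (averaged over the endothelial, macrophage and fibroblast marker lists). Each of the 16 libraries was also left out in turn. Leaving out heart CCR8- replicate 3 and heart CCR8+ replicate 2 was added after seeing the data. Deviations of same-numbered libraries had r of -0.0933 to 0.0589, and no source tells whether equal numbers share mice. Sequences came from RefSeq promoters (GRCm38.p6, 8 of 9 members matched) and from GENCODE vM21 transcripts. A planned look at protein sequences was not run.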

Additional observations from a re-analysis of the deposited data

Results flagged for a closer look

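Over the 9 members, 32 groups of 4 libraries had a value above 0, and the highest or lowest library stood far from the others in 3. Chance gives about 1 in 20 for values that spread, which does not apply to the first 2 below, since the other 3 libraries are all at 0 there. Csf1 was 0.13 in MLN CCR8- replicate 4 and listed at 0 in the other 3. Csf2 was 2.31 in the same library and listed at 0 in the other 3 of its group. Tnfsf8 was 4.89 in heart CCR8+ replicate 2 and 7.08 to 7.34 in the other 3 of its group. That library also had the highest macrophage markers of the study (5.35).

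The CCR8 difference in Csf2 itself differed between heart and MLN, by 3.46 ± 0.71 (SE, adjusted p = 0.0321 in limma). All 4 heart CCR8+ libraries were above all 4 heart CCR8- libraries, and in MLN the only library above 0 was CCR8-. The adjusted p ranged from 0.0275 to 0.109 over the alternatives.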

How the results depend on the processing

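Depth is unknown, so values near 0 cannot be told from missed transcripts, and with 4 libraries per group single libraries decide several calls. Genes called in heart CCR8+ against heart CCR8- numbered 38, and 13 with no filter, 5 with only the groups compared, 20 with a replicate block, 16 with the covariate, 11 without heart CCR8- replicate 3 and heart CCR8+ replicate 2, and 3 to 52 with 1 library left out (11 without heart CCR8- replicate 2, and 4, 8 and 3 without heart CCR8+ replicates 1, 2 and 3). In MLN CCR8+ against MLN CCR8- the 429 became 169 with only the groups compared and 273 to 469 with 1 library left out (273 and 283 without MLN CCR8+ replicates 4 and 1). In heart CCR8+ against MLN CCR8+ the 1015 became 472 with the covariate and 696 to 1115 with 1 library left out. In heart CCR8- against MLN CCR8- the 473 became 305 with no filter, 204 with only the groups compared, 17 with the covariate and 266 to 483 with 1 library left out (286 and 266 without MLN CCR8- replicates 3 and 4). The 42 of the interaction became 18 with no filter and 28 to 62 with 1 library left out. The cause of these changes was not tested.

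Members called went from 1 to 0 in heart CCR8+ against heart CCR8- with an FPKM of 5, with only the groups compared and without the 2 libraries (0 to 1 with 1 library left out), and in heart CCR8- against MLN CCR8- with no filter, array weights and the covariate (0 to 2). For the interaction it was 0 with an FPKM of 5, no filter, a pseudocount of 0.1, the replicate block, the covariate and without the 2 libraries (0 to 1). It was 0 to 1 within MLN and 2 to 3 in heart CCR8+ against MLN CCR8+ with 1 library left out. Same-numbered libraries did not deviate together and no source gives a pairing, so the numbers were not taken as pairs. Whether they share mice cannot be told from this. The block changed no other call of a member.

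Differences changed sign only in comparisons where the member was not called. Tnfsf8 between the heart groups became -0.0039 with a pseudocount of 0.1 and -0.30 with the covariate, Tnfsf11 became 0.022 with array weights and 0.15 without the 2 libraries, and Tnf became -0.52 without them. In heart CCR8+ against MLN CCR8+, Csf1 became -0.29 with the covariate and -0.10 without the 2 libraries. With the covariate Ifng became 0.73 in that comparison and 2.20 in heart CCR8- against MLN CCR8-, Csf1 became -0.40 in the latter and 0.11 in the interaction, and Lif -0.27 in the interaction. Without the 2 libraries Ifng kept its sign, at -2.02 between the heart groups and -1.32 in the interaction, as did Csf1 in the interaction (-0.73).

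With 1 library left out, the heart CCR8 difference ranged from -0.74 to 0.022 (Lif), -0.42 to 1.65 (Tnf), -1.67 to 0.13 (Ifng), -0.24 to 0.58 (Tnfsf8) and -0.37 to 0.21 (Tnfsf11). The MLN CCR8 difference ranged from -0.81 to 0.042 (Lif), -1.88 to 0.25 (Ifng) and -0.27 to 1.34 (Tnfsf11). Csf1 in heart CCR8+ against MLN CCR8+ ranged from -0.18 to 0.74 and Tnf in heart CCR8- against MLN CCR8- from -0.47 to 1.22. The interaction ranged from -0.71 to 0.21 (Csf1), -0.40 to 0.58 (Lif), -1.51 to 1.36 (Penk), -1.12 to 0.998 (Ifng) and -1.42 to 0.19 (Tnfsf11). Csf1 and Lif had no value with an FPKM of 5, and only the groups compared could not be run for the interaction.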

Other observations

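Csf2 (54247271 to 54249667) lies on mouse chromosome 11 (GRCm38, GENCODE vM21). The nearest of the cytokine genes looked up was Il3 (54265303 to 54267277), which has no values here. Farther off on the same chromosome lie the type 2 cytokine genes Il5 (53720794 to 53725106), Il13 (53631324 to 53634702) and Il4 (53602982 to 53618669). Il5, Il13 and Il4 were chosen after their values were seen and were too low in most libraries to pass the filter. Il5, the growth factor of eosinophils, was 6.67, 5.43, 5.68 and 0.09 in heart CCR8+ replicates 1 to 4, listed at 0 in all 4 heart CCR8- libraries and at most 0.34 in MLN. Il13 was 1.12, 1.04, 0 and 0.16 in heart CCR8+ and at most 0.06 elsewhere. Il5 and Csf2 thus shared 3 heart CCR8+ libraries, while replicate 4 held Csf2 (2.65) with almost no Il5.

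Il4 did not follow them, with 2.72 in heart CCR8+ replicate 4, 5.45 in MLN CCR8- replicate 4 and 3.30 in MLN CCR8+ replicate 3. The MLN CCR8- library with 5.45 of Il4 was the single one of its group with Csf2 (2.31). No test is given for these genes, which were chosen for their pattern. Innate lymphoid and mast cell markers, the other known sources of Il5 and Il13, averaged 1.30, 1.01, 1.39 and 2.02 in heart CCR8+ replicates 1 to 4 and 1.45 to 1.89 in heart CCR8-. Il7r, the highest of these markers, was 6.46 to 6.85 in heart CCR8+ and 6.53 to 7.28 in heart CCR8-, and weighs most in this mean. The part of innate lymphoid and mast cells in the values of Il5, Il13 and Il4 was not tested.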
